A study of Zea mays with 9 samples.

Results

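Dense blocks are stretches of the maize genome where peaks of the transcription factor ZmbZIP60 lie so close together that 5 or more of them fall into a single locus. Peaks on chromosomes 1 to 10 were joined into loci where their edges were at most 10000 bp apart, and every peak of a locus with 5 or more peaks was taken. This gave 517 peaks in 54 blocks, which is 20.8% of the 2489 chromosomal peaks in 3.09% of the 1749 chromosomal loci. The whole ZmbZIP60 list holds 3042 peaks, and those on unplaced contigs were not used for the blocks. The members were chosen by the measured positions of the peaks, so the number and spacing of peaks, and every other value of the same list, are given below as a description with no test.

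The data come from chromatin immunoprecipitation with sequencing (ChIP-seq) of leaf protoplasts, which are leaf cells without their walls, from the inbred line B73. A GFP fusion of ZmbZIP60 (GFP-ZmbZIP60C in the titles), a GFP fusion of ZmbZIP17 (GFP-ZmbZIP17C) or the GFP vector alone was introduced, with 3 libraries each, and chromatin was pulled down with an antibody to GFP. Another label field names the ZmbZIP17 samples GFP-bZIP91, and the letter C is not explained there. All 9 samples, vector controls included, carry the same label of tunicamycin at 5 mg per ml in DMSO, given to seedlings that had germinated for 2 days at 30 degrees and grown for 7 days at 23 degrees, so there is no untreated arm. The fusions were brought in by transformation, and the labels do not give the promoter or the level of the introduced proteins beside the plant's own.

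In plants, bZIP60 and the related membrane-bound factors bZIP28 and bZIP17 are transcription factors of the unfolded protein response, the programme that raises folding and degradation capacity when misfolded proteins build up in the endoplasmic reticulum (ER). IRE1, a sensor in the ER membrane, splices the mRNA of bZIP60. The bZIP17 protein sits in the membrane until it is cut in the Golgi and moves to the nucleus. Tunicamycin blocks N-glycosylation and so causes ER stress. A ChIP-seq peak marks DNA that was recovered more often with the fusion protein than with the vector control.

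The libraries of each group had been merged before peaks were called, so each value below is a single merged measurement with no error between replicates. In the file headers the name of the merged ZmbZIP60 file leaves out the number 2, which the names of the merged ZmbZIP17 and vector control files carry, so whether the ZmbZIP60 merge holds replicate 2 is not known. The merged ZmbZIP60 library kept 18726110 tags after removal of repeated positions, the ZmbZIP17 library 126318506 tags and the vector control 47193255 tags. The pileup is the number of tags, each extended to 200 bp, over the summit of a peak. The control level is given as vector control tags over 200 bp, unscaled, and its mean over the genome was 3.5. The fold is the authors' ratio of the pull-down to the control scaled to the same depth. One tag was kept per position and strand, so no pileup can exceed 400 tags. The same limit of 400 holds for the control tags over 200 bp. Block peaks reached 373 control tags, so the highest control levels can be undercounts, and the fold that can be reached there is limited. Intervals on counts cover counting error only. Coordinates are 1-based and follow the authors' files, whose contig names point to assembly version 4 of B73. The gene table at hand is of version 5, so genes, exons and sequences at the blocks were not analysed here.

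The blocks were spread unevenly over the chromosomes. Chromosome 6 held 11 of them with 87 peaks, chromosome 2 held 9 with 97 peaks, chromosome 9 held 7 with 74 peaks and chromosome 4 held 5 with 84 peaks. Chromosome 1 had 7 blocks with 46 peaks, chromosome 10 had 4 with 36, chromosome 7 had 4 with 35, chromosome 5 had 4 with 32 and chromosome 3 had 3 with 26. Chromosome 8 held 163 ZmbZIP60 peaks and 0 of them lay in a block. This depended on the joining distance: at 20000 bp, 2 loci of 4 peaks on chromosome 8 joined into a block of 8 peaks, 160908570 to 160931879. On chromosomes 2, 4, 6 and 9 between 30.1% and 32.0% of the chromosome's own peaks were block peaks, against 9.52% on chromosome 3. Each block is named below by its chromosome and a letter in order along it, so that 4a is the first block on chromosome 4.

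A block held a median of 8 peaks (range 5 to 30) over a median span of 13782 bp (range 3886 to 68804 bp). Block peaks were long, with a median of 498 bp and quartiles of 291 and 1169 bp, against a median of 298.5 bp with quartiles of 235 and 399 bp for the 1972 other chromosomal peaks. Of the block peaks, 149 (28.8%) were over 1000 bp long, against 56 of the others (2.84%). The 517 block peaks covered 508284 bp, which is 40.2% of all bases under chromosomal peaks. Neighbours within a block lay a median of 426 bp apart, and 355 of the 463 gaps (76.7%) were 1000 bp or less. The shortest gap was 148 bp, next to the tag length of 147 bp given in the file header. Among the other chromosomal peaks the shortest gap was also 148 bp. Whether the call split longer enriched stretches into several peaks was not tested. Peaks covered 52.7% of the summed span of the blocks, and between 9.08% and 93.0% of a single block.

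The 5 blocks with the most peaks show how different the layout could be. Block 4e, on chromosome 4, 160247893 to 160316696, and block 2c, on chromosome 2, 79917643 to 79977058, held 30 peaks each. Peaks covered 56.4% of 4e and 58.7% of 2c. In 4e the longest peak measured 7696 bp, at 160303045 to 160310740, where the pileup was 76 tags (95% Poisson interval for counting error 59.9 to 95.1) and the control 50.8 tags. Block 9a, on chromosome 9, 6513926 to 6556182, held 19 peaks over 78.8% of its span. The other two were sparser chains of short peaks. Block 2d, on chromosome 2, 98024768 to 98053181, had 18 peaks over 22.1% of its span, none longer than 792 bp, and block 4b, on chromosome 4, 115254706 to 115287108, had 17 peaks over 15.7%, none longer than 494 bp. These 5 blocks together held 114 of the 517 peaks (22.1%).

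**Figure D1:**
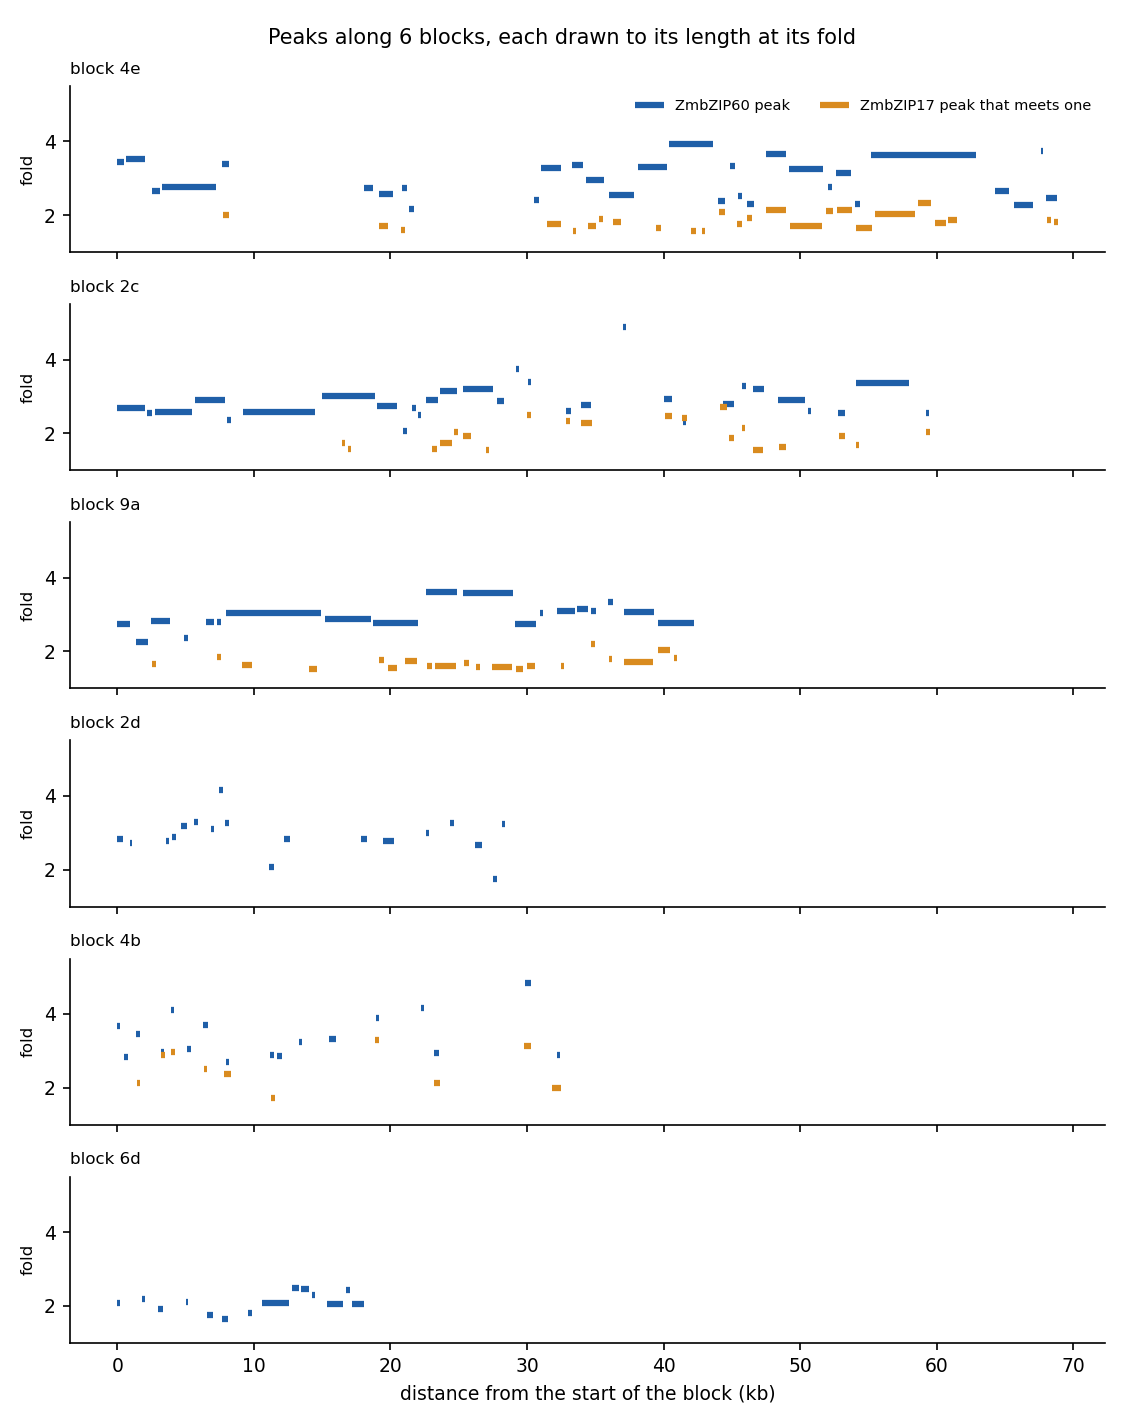
Peaks along the 5 blocks with most peaks and along 6d, the largest block of a group on chromosome 6; the x axis is the distance from the block start in kb and the y axis the fold. Each blue bar is a ZmbZIP60 peak and each orange bar a ZmbZIP17 peak that overlaps one, drawn to its length; bars of 4e, 2c and 9a are long and close, those of 2d and 4b short and apart, and 2d and 6d have no orange bar.

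Some blocks lay near each other. With blocks at most 1 Mb apart put into groups, a distance chosen after seeing the data, 6 groups of neighbouring blocks appeared. The largest in number was on chromosome 6, 12748730 to 14395924, with 8 blocks (6a to 6h) and 60 block peaks in 1647195 bp. On chromosome 4, 115198010 to 115370933, the 4 blocks 4a to 4d held 54 peaks in 172924 bp, and no peak of that stretch lay outside them. Chromosome 2, 79867662 to 79977058, held 2b and 2c with 39 peaks together. Chromosome 5, 215760448 to 216135375, held 5b to 5d with 25 peaks. The remaining groups were 9c to 9e with 23 peaks and 1a with 1b, the first blocks of chromosome 1, with 16.

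Block peaks stood where the vector control was itself high. Their median control level was 93.8 tags over 200 bp (quartiles 59.0 and 167; range 13 to 373), against 7.9 tags (quartiles 5.67 and 59.0; range 3.5 to 320) at the other chromosomal peaks. Under 20 control tags lay 5 of the 517 block peaks, in 3 blocks, against 1269 of the 1972 others. At 100 or more control tags lay 46.6% of the block peaks and 13.2% of the others. Taken by block, the median control level was between 7.87 and 94.7 times the genome mean.

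At a small part of the block peaks the high control level was also measured over wider stretches. The peak caller uses the largest of several control means around a summit, over 200 bp, 1000 bp, 10000 bp or the genome. At 460 block peaks (89.0%) the level was a whole number of tags, as a count over 200 bp is. At 39 block peaks (7.54%) it was the mean over 10000 bp, the largest of the control means there. There the control averaged a median of 58.2 tags per 200 bp across the whole 10000 bp (range 29.4 to 229). At the 296 other chromosomal peaks whose level was such a mean or the genome mean, the median was 5.03 tags (range 3.5 to 16.6). For the remaining block peaks the mean over 10000 bp is not given.

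Over this control the ZmbZIP60 pull-down was enriched by a median fold of 2.74 (quartiles 2.29 and 3.12; range 1.54 to 5.38). The median pileup was 98 tags, which was a median of 58.2 tags more than the scaled control. At the other chromosomal peaks the median fold was 4.14 and the median pileup 21 tags. These folds are not comparable as they stand, because the fold that the call could list falls as the control rises. The lowest fold it could list had a median of 1.67 at block peaks and 3.11 at the others.

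**Figure D2:**
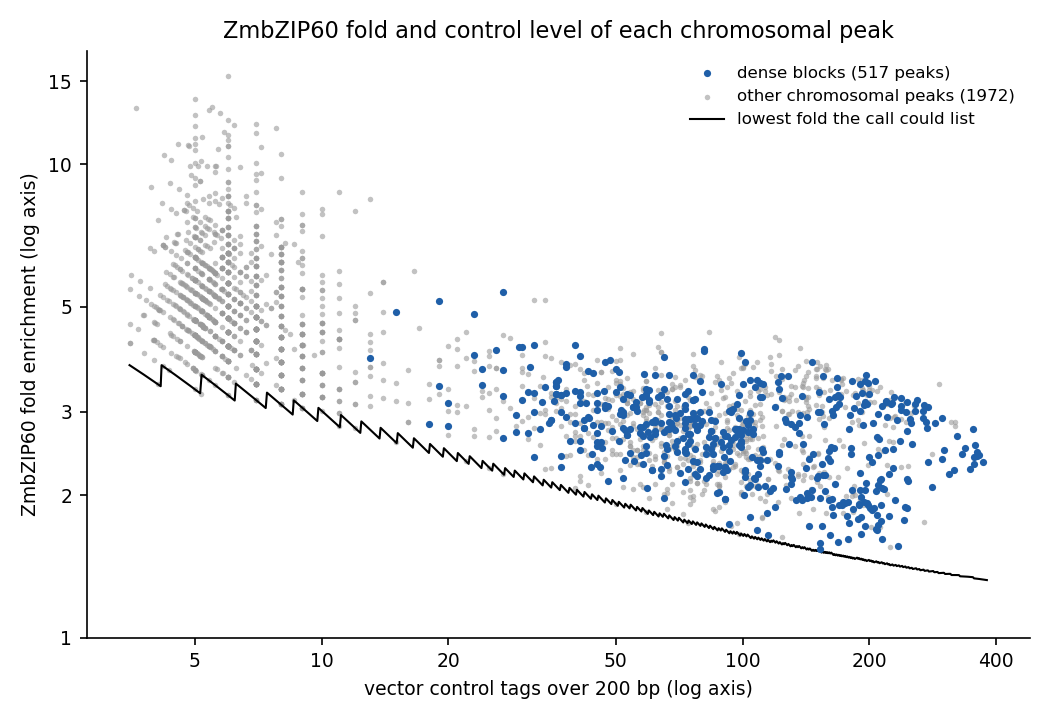
Fold enrichment of ZmbZIP60 (y axis, log scale) against vector control tags over 200 bp (x axis, log scale) for each chromosomal peak, with block peaks in blue, other peaks in grey and the lowest fold the call could list as a line. Block peaks lie at 13 to 373 control tags with folds of 1.54 to 5.38, and other peaks reach folds of 15.4, at control levels under 20 tags.

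Within bands of control level the folds of block peaks and other peaks were close from 20 to 100 tags. At 20 to 50 control tags the median fold was 3.13 for 86 block peaks and 3.10 for 136 others, and at 50 to 100 tags it was 2.75 for 185 block peaks and 2.74 for 307 others. Higher up the block peaks had the lower median fold, with 2.39 for 158 block peaks against 2.93 for 221 others at 100 to 200 tags. At 200 tags and over it was 2.47 for 83 block peaks against 2.90 for 39 others. Without a group of 8 blocks on chromosome 6, described below, the medians of the block peaks in these bands were 2.75 and 2.66. Under 20 tags the 5 block peaks had a median of 3.90 and the 1269 others 4.90, at median control levels of 18 and 6 tags.

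More of the variation in fold, pileup and control level lay between blocks than within them. On a log2 scale 57.1% of the sum of squares of fold, 66.6% of that of pileup and 71.5% of that of control level lay between the 54 blocks. Some share lies between groups by the grouping alone, and it was not subtracted. The SD within blocks was 0.22 log2 units for fold, 0.55 for control level and 0.52 for pileup. Single blocks could vary widely: in 7a the pileup ran from 30 to 388 tags and the control from 27 to 352 tags. By block, the median fold ran from 1.88 to 3.28 and the median pileup from 41 to 314 tags.

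The blocks with the highest control levels differed in pileup. After the 5 with most peaks, the highest median control was 331 tags in block 1a, at chromosome 1, 1748 to 26090, whose 7 peaks had a median pileup of 314 tags and folds of 2.22 to 2.56. Block 1f, at chromosome 1, 197008299 to 197021871, had a median pileup of 265.5 tags over 274 control tags and a median fold of 2.49. Block 2e, at chromosome 2, 157584395 to 157595182, had 206 tags over 255 control tags and a median fold of 2.17. Block 2f, at chromosome 2, 176903942 to 176922234, had a higher pileup of 288 tags over a lower control of 238 tags, with a median fold of 2.92, and a single peak of 11309 bp took most of its span. Block 6f, at chromosome 6, 13585561 to 13594895, had 163 tags over 204 control tags and a median fold of 1.94.

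Among the 27 blocks with a median of 100 or more control tags, the median folds fell on 2 sides with little between them. In 15 blocks the median fold was under 2.25 (range 1.88 to 2.23), in 10 it was over 2.75 (range 2.85 to 3.28), and 2, 1a and 1f, lay between at 2.44 and 2.49. These limits were drawn after seeing the values. The control levels of the sides overlapped, with block medians of 127.5 to 255 tags in the 15 and 122 to 238 tags in the 10, while block median pileups were 102 to 206 tags in the 15 and 165 to 288 tags in the 10. The 15 blocks of lower fold were 6a to 6i, 2e, 2h, 7b, 7c, 9b and 10a, and the 10 of higher fold were 1c, 1d, 2a, 2f, 5b, 5c, 6j, 7a, 10b and 10c. Peaks covered a median of 26.9% of the span in the 15 and 75.9% in the 10. Coverage and fold come from the same call, and single blocks departed from this order: 2e, among the 15, was covered to 78.5%. The 27 blocks under 100 control tags had median folds of 2.42 to 3.27, of which 20 were over 2.75, 7 lay between 2.25 and 2.75 and 0 were under 2.25.

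The chromosome 6 group lay wholly on the lower side. Its 60 peaks had a median fold of 2.04 (range 1.57 to 2.56), a median pileup of 138 tags (range 72 to 354) and a median control of 176 tags (range 77 to 363). By block the median folds of 6a to 6h were 1.88 to 2.20, at median controls of 138.5 to 204 tags. The 15 other blocks with medians of 100 to 210 control tags had median folds of 1.88 to 3.28, so the ranges overlapped. Block 6i, at chromosome 6, 25424827 to 25448461 and so outside the group, had a median fold of 1.88, and 6j, at 83728138 to 83737831, had the highest block median, 3.28, at a control of 182 tags. In 6j the median pileup was 237 tags, against 134 tags in 6i at 184 control tags.

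**Figure D3:**
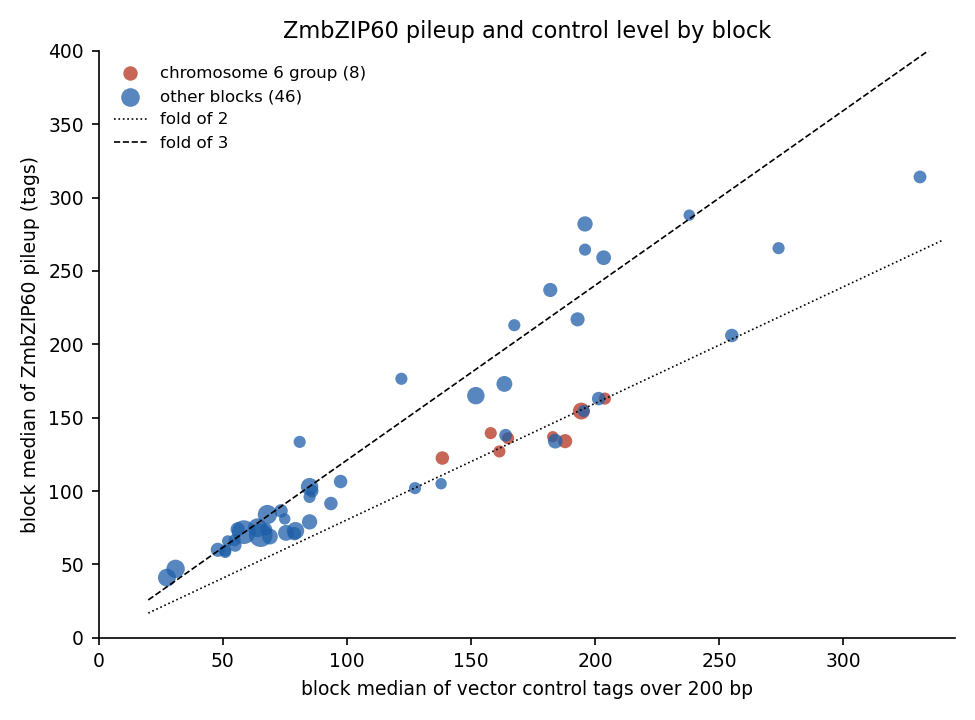
Median ZmbZIP60 pileup in tags (y axis) against median vector control tags over 200 bp (x axis) for each of the 54 blocks; point area grows with the number of peaks, the 8 blocks of the chromosome 6 group are red and the lines mark a fold of 2 and of 3. Blocks under 100 control tags lie in a single band, and above 100 tags most lie near the line of 2, all of the red ones among them, or near the line of 3, with 1a and 1f between the lines.

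At the low end of the control level pileups were small too. After the 5 with most peaks, the lowest median control was 27.5 tags in block 4c, at chromosome 4, 115311028 to 115348428, where 16 peaks had a median pileup of 41 tags and folds of 2.72 to 5.15. Block 1b, at chromosome 1, 363096 to 378968, had a median pileup of 60 tags over 48 control tags and a median fold of 2.77. Block 1g, at chromosome 1, 235237248 to 235244711, had 59.5 tags over 51 and a median fold of 3.03. Block 9c, at chromosome 9, 61095568 to 61101445, had 58.5 tags over 51 and a median fold of 2.95. Block 10d, at chromosome 10, 129701601 to 129707582, had 66 tags over 52 and a median fold of 3.27.

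The block peaks with the highest fold came from blocks with medians of 27.5 to 65.3 control tags. The highest fold, 5.38, was at chromosome 1, 235237248 to 235237578, in 1g, with 62 tags over 27 control tags (95% Poisson interval of the pileup 47.5 to 79.5). Next came 5.15 in 4c, at 115319231 to 115319794, with 43 tags (31.1 to 57.9) over 19 control tags. A fold of 4.89 in 2c, at 79954667 to 79954867, rested on 33 tags (22.7 to 46.3) over 15. After these came 4.84 in 4b, at 115284527 to 115285011, with 48 tags over 23, and 4.16 in 2d, at 98032252 to 98032525, with 56 tags over 32. Within 2c the peak of fold 4.89 had the lowest control level of the block, whose median was 65.3 tags.

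Ranked by the authors' −log10 q, other blocks led. The highest block values were 64.5 and 63.6 in 10b, at chromosome 10, 48839432 to 48840010 and 48842276 to 48844868, with 282 tags (95% Poisson interval 250 to 317) over 196 control tags and 329 tags over 259. Block 2a followed with 63.5, block 1d with 62.6 and block 9g with 61.9. In 9g that peak, at chromosome 9, 90541082 to 90544587, had 337 tags over 275 control tags, the highest of its block on both counts, while the block medians were 73 tags and 79.3 control tags. In 25 block peaks (4.84%) the pileup was over 75% of the 400 tags that the calling allows. The highest, 388 tags over 352 control tags, was in the longest block peak, 21655 bp in block 7a, at chromosome 7, 46253212 to 46274866.

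**Figure D4:**
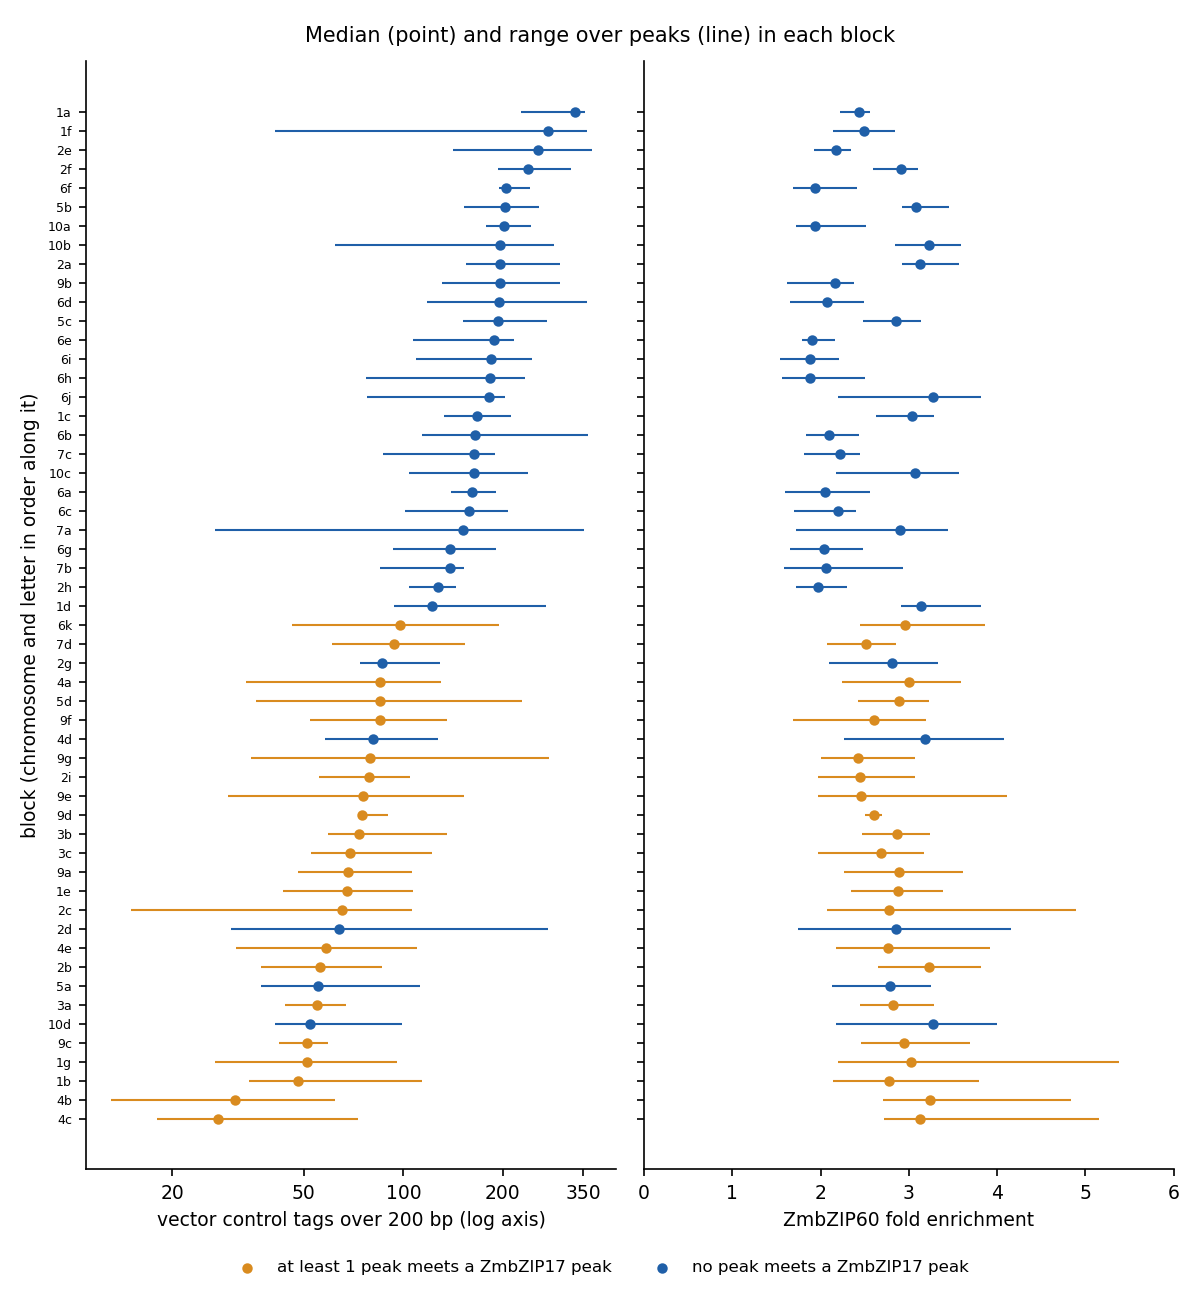
Vector control tags over 200 bp (left, log scale) and ZmbZIP60 fold (right) for each block, one row per block in order of control level with the highest at the top; points are medians and lines the range over the peaks of the block. Orange blocks have at least 1 peak that overlaps a ZmbZIP17 peak, and all 22 of them lie under a median of 100 control tags.

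The ZmbZIP17 pull-down was not used to choose the blocks, and it was called against the same vector control libraries. At least 1 bp was shared with a ZmbZIP17 peak by 130 of the 517 block peaks (25.1%, 95% Clopper-Pearson interval 21.5 to 29.1), against 57 of the 1972 other chromosomal peaks (2.89%, interval 2.20 to 3.73). Over all chromosomal ZmbZIP60 peaks the share was 7.51%. The blocks thus held 69.5% of the 187 ZmbZIP60 peaks that overlap a ZmbZIP17 peak. Seen from the ZmbZIP17 list, 157 of its 282 peaks (55.7%) lay on a block peak, where 78.4% lay on some chromosomal ZmbZIP60 peak, and 174 lay within the span of a block. Block peaks share their block, were longer than other peaks and stood at higher control levels, and the part of this in the overlap was not tested. Under 20 control tags lay 1269 of the 1972 others, of which 5 met a ZmbZIP17 peak (0.394%), and 5 block peaks, of which 2 did. The intervals describe counting error alone, and no test of the difference was made. Counting only peaks with a ZmbZIP17 summit no more than 100 bp from their own, the shares were 15.3% of the block peaks and 1.72% of the others, against 4.54% of all chromosomal peaks.

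Whether a block met ZmbZIP17 followed its control level. Of the 27 blocks with a median under 100 control tags, 22 had at least 1 peak that overlapped a ZmbZIP17 peak (81.5%, interval 61.9 to 93.7), and of the 27 with 100 tags or more, 0 had one. Over all chromosomal loci the share was 3.72%. In the blocks of high control ZmbZIP17 peaks could hardly be listed. The ZmbZIP17 library was scaled down to the control, which caps its pileup at 149, and at 234 of the 517 block peaks (45.3%) the ZmbZIP17 call needed more than that. Of those 234, 4 overlapped a ZmbZIP17 peak. In the 27 blocks of high control, 195 of 212 peaks were above this limit, so for these the list does not show whether ZmbZIP17 was enriched. The other 17 peaks, in 10 of the blocks, lay under the limit at 27 to 101 control tags, with a median of 87.0. Of these, 0 met a ZmbZIP17 peak (95% Clopper-Pearson interval up to 19.5%). In the 27 blocks of lower control, 126 of 266 peaks under the limit met one (47.4%, interval 41.2 to 53.6). The median control of the 266 was 60.1 tags, so these shares do not compare peaks at matched control level. Of the 283 block peaks under the limit, 126 met a ZmbZIP17 peak (44.5%, interval 38.6 to 50.5), against 8.97% of all chromosomal peaks under it.

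At matched control level the block peaks met ZmbZIP17 more often than peaks of smaller loci. At 20 to 50 control tags it was 52 of 86 block peaks (60.5%, interval 49.3 to 70.8), 19 of 51 peaks in clusters of 2 to 4 (37.3%, 24.1 to 51.9) and 9 of 85 single peaks (10.6%, 4.96 to 19.1). The intervals of blocks and clusters overlapped there, and the share of all chromosomal peaks in that band was 36%. At 50 to 100 tags it was 72 of 185 block peaks (38.9%, 31.9 to 46.3), 14 of 113 in clusters (12.4%, 6.94 to 19.9) and 7 of 194 single peaks (3.61%, 1.46 to 7.29), with 18.9% of all. At 100 to 200 tags, where 151 of the 158 block peaks were above the ZmbZIP17 limit, 4 block peaks met one (2.53%), against 1.85% of all. The block peaks at 20 to 50 and 50 to 100 tags lay in 21 and 35 blocks, and the intervals take peaks of a block as independent. Over all bands, 4b and 4c alone had 10 and 14 peaks that met one. Median peak lengths in the first band were 271.5 bp in blocks, 336 bp in clusters and 278 bp for single peaks. In the second band they were 568, 336 and 329.5 bp. The part of peak length in these shares was not tested. By locus, with median controls of 20 to 100 tags, 22 of 27 blocks, 20 of 69 clusters (29.0%) and 16 of 279 single peaks (5.73%) met a ZmbZIP17 peak. The median bases covered per locus were 8087 in these blocks, 925 in the clusters and 313 in the single peaks.

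**Figure D5:**
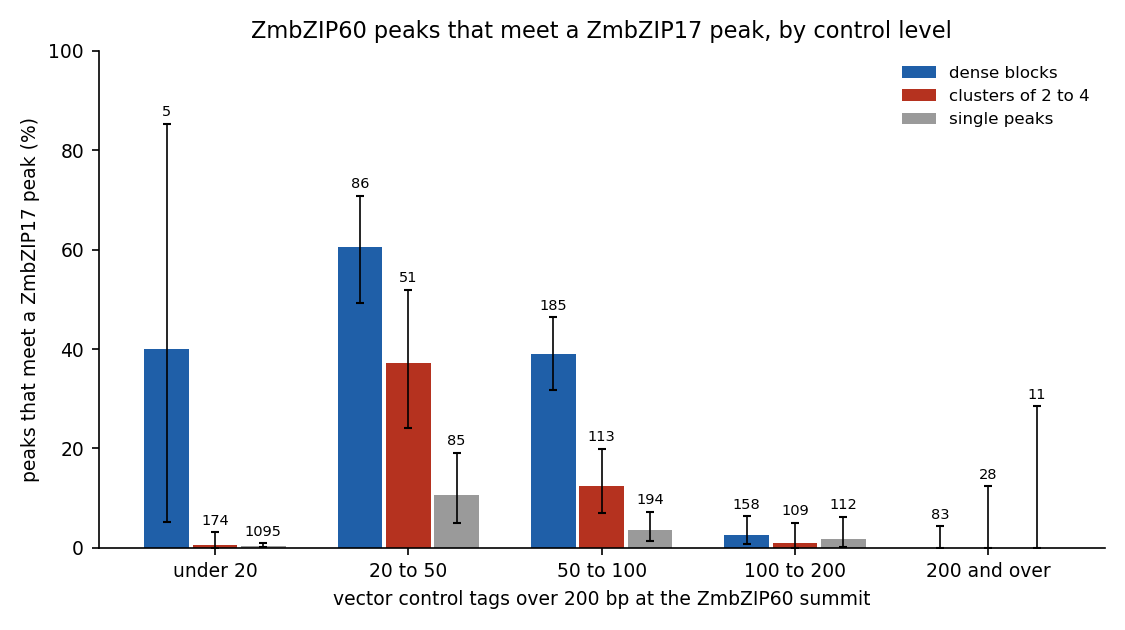
Share of ZmbZIP60 peaks that overlap a ZmbZIP17 peak (y axis, percent) in bands of vector control tags over 200 bp (x axis), for dense blocks, clusters of 2 to 4 peaks and single peaks; error bars are 95% Clopper-Pearson intervals and the numbers give the peaks in each group. From 20 to 100 tags the order is blocks, clusters, single peaks, and from 100 tags on nearly all peaks are beyond what the ZmbZIP17 call could list.

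In 10 blocks 5 or more peaks met a ZmbZIP17 peak. Block 4e had 19 of 30, with 26 ZmbZIP17 peaks in its span at a median fold of 1.82, and 2c had 16 of 30, with 23 ZmbZIP17 peaks at 2.02. In 4c, 14 of 16 peaks met one, with 21 ZmbZIP17 peaks at a median fold of 2.56, and in 4b 10 of 17 did, with 14 at 2.70. The peak of highest fold in 4b, and that of 4c, were among them. Block 9a had 12 of 19, with 20 ZmbZIP17 peaks at a median fold of 1.65. The share of ZmbZIP60 peaks that met one was 6 of 6 in 3a (chromosome 3, 26960126 to 26977794), 6 of 12 in 3c (chromosome 3, 81479478 to 81495080) and 6 of 15 in 9g. It was 5 of 9 in 2b (chromosome 2, 79867662 to 79874964) and 5 of 6 in 1e (chromosome 1, 25984321 to 25994332).

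ZmbZIP17 peaks formed runs of their own, most of them at the blocks. Joined by the same distance, the ZmbZIP17 list had 13 loci of 5 or more peaks, holding 155 peaks, and 11 of the 13 overlapped a ZmbZIP60 block. The remaining pair lay on chromosome 6, at 54010811 to 54017346, and on chromosome 9, at 115194979 to 115198296. Each of these meets a ZmbZIP60 locus of 4 peaks, just under the limit for a block, and all 4 peaks of both loci met a ZmbZIP17 peak. Neighbouring blocks could differ in this respect: 4b and 4c were rich in ZmbZIP17 peaks, while 4a on their one side had 1 of 15 peaks meeting one and 4d on the other had 0 of 6, with 5 and 2 of their peaks above the ZmbZIP17 limit. Of the 27 blocks under 100 control tags, the 5 with no overlap were 2d, 2g, 4d, 5a and 10d. Block 2d had 18 peaks, of which 4 were above the limit, and in 10d none of the 5 peaks was.

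Over the 165 overlapping pairs in blocks, the summits lay a median of 118 bp apart, and 79 pairs (47.9%) had summits within 100 bp. The median fold was 2.92 for ZmbZIP60 and 1.84 for ZmbZIP17 in these pairs. The lists were scaled separately and share their control, so these folds do not compare the occupancy of the factors. ZmbZIP17 peaks on block peaks had a median fold of 1.84 at a median control of 55.0 tags, and the 125 other ZmbZIP17 peaks had 2.38 at 34.0 tags. These 2 folds are not comparable as they stand. The ZmbZIP17 pileup is capped at 149, so the highest fold it can reach falls as the control rises. ZmbZIP17 folds were not compared at matched control level.

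Loci just inside and just outside the limit of 5 peaks are given once, as a description. The 5 loci with exactly 5 peaks had a median span of 9947 bp, and their 25 peaks a median fold of 2.60 over a median of 99 control tags. The 23 loci with 4 peaks, just outside, had a median span of 4907 bp, and their 92 peaks a median fold of 3.03 over 89.5 control tags. A ZmbZIP17 peak met 1 of the 5 and 3 of the 23. The 4-peak loci with the most covered bases were chromosome 2, 206599810 to 206609597 (9213 bp covered, median fold 3.23 over 220.5 control tags) and chromosome 6, 54010779 to 54019108 (6974 bp, 3.06 over 50.6). They were followed by chromosome 2, 152226587 to 152232185 (4357 bp, 3.02 over 141.5), chromosome 4, 209782514 to 209797513 (4099 bp, 2.39 over 87.3), and chromosome 3, 96362744 to 96366161 (2598 bp, 3.14 over 161.5).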

How the data were processed

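The authors' tools included Trimmomatic 0.36, BWA and bedtools, per the submitters' processing notes; the sources used here do not give how reads that fit several places were handled. MACS2 2.1.0.20150420, per the file headers, called peaks on merged libraries (tags extended to 200 bp, q cutoff 0.05, effective genome size 2.7 Gb). The deposited pileup is a signal of extended tags, the deposited fold a ratio of (pileup + 1) to (control + 1), and MACS2 computed the deposited −log10 p and −log10 q values by a Poisson test. The deposited score, a rounded multiple of −log10 q, was used only to compare files. All deposited files agreed for 3042 and 282 peaks. The control level was recovered from fold and pileup to within 0.0024 tags. Lowest listable folds used the lowest −log10 p listed (4.24 for ZmbZIP60 and 5.39 for ZmbZIP17).

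Members and lists were chosen with earlier results of these data known. Named regions are the 5 blocks with most peaks, the 5 highest and 5 lowest of the rest by median control, the 5 block peaks highest by fold and by −log10 q, blocks with 5 or more peaks meeting ZmbZIP17, and the 5 largest loci of 4 peaks; other blocks were named after their values were seen. Joining and overlap were tested on simulated data. Scripts ran under Python 3.11.15 with pandas 2.3.3, scipy 1.17.1, numpy 2.4.6 and, for plots, matplotlib 3.10.9.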

Additional observations from a re-analysis of the deposited data

How the results depend on the processing

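No paired analysis was possible because the peaks were called on merged libraries, and for the same reason leaving out a replicate was not run. The alternatives on genes, on sequence at summits and on repeated or organellar words were not run, since no genome of the files' build was used. Joining distances of 5000 and 20000 bp gave 486 and 569 members in 56 blocks each, and a −log10 q of 3 or more gave 499. With 8 or more peaks per locus there were 29 blocks, at a median control of 85.5 tags, the median being added after seeing the data. With each block counted once, the median control was 109.75 tags and the share meeting ZmbZIP17 40.7%. That share was 15.3% with summits within 100 bp, 17.02% with ZmbZIP17 peaks of −log10 q of 3 or more, and 44.5% for summits under the ZmbZIP17 limit. Without the chromosome 6 group, an alternative chosen after seeing the data, the median fold was 2.82, the median control 85.0 tags, and the median fold 2.75 at 100 to 200 and 2.66 at 200 control tags and over. The 63 other values stayed within 1.5 times (counts) or within the 95% interval of the value as reported, which takes peaks as independent. Under 20 control tags that is a weak check, as the median fold rests on 5 peaks. It went from 3.90 to 4.81 with 4 or more peaks per locus. The cause of the changes was not tested.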

Other observations

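Runs of 5 or more ZmbZIP60 peaks also stood on the unplaced contigs. Joined by the same distance, 361 of the 553 contig peaks (65.3%) lay in 45 such loci on 35 contigs. Their median fold was 2.25 (range 1.53 to 3.52) and their median control 203 tags over 200 bp (range 35 to 391). At 100 to 200 control tags the median fold was 2.09 for 147 of these peaks, and at 200 tags and over it was 2.32 for 195. None of the 361 overlapped a ZmbZIP17 peak, and at 341 of them (94.5%) the ZmbZIP17 call needed a pileup above its limit.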
